A study of Mus musculus with 2 samples.

Results

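The ErbB receptors and their ligands were compared between 1 control library and 1 Hdac3 cKO library of mouse optic nerve. The set holds 9 genes: the receptors Egfr, Erbb2, Erbb3 and Erbb4, the neuregulins Nrg1, Nrg2 and Nrg3, and the EGF-like ligands Hbegf and Tgfa. These 9 were taken by gene symbol, a set proposed with earlier results of these data in view, from the 23950 symbols in the deposited tables. All 9 have an entry, and each has 1 entry only.

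Both libraries were made from whole optic nerve at postnatal day 12, on a strain background given as mixed. Control animals were Hdac3 f/+; Olig1-cre and cKO animals were Hdac3 f/f; Olig1-cre, so both groups carried the Olig1-cre recombinase and at least 1 Hdac3 allele that it can delete. Olig1 is a gene of the oligodendrocyte lineage, and the recombinase acts in cells that express it or descend from such cells. How many animals were pooled per library could not be learned from the labels. Neither group has a replicate, so no test between genotypes was made, and every difference below describes these libraries. In RNA from whole nerve, fewer cells of a type and less RNA per cell cannot be told apart.

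ErbB receptors are tyrosine kinases that pair up when a ligand with an EGF-like domain binds outside the cell. EGFR binds TGF-alpha and HB-EGF, ERBB3 and ERBB4 bind neuregulins, ERBB4 also binds HB-EGF, and ERBB2 binds no known ligand and serves as the partner of the others. ERBB3 has little kinase activity of its own and signals mainly through its partner, often to PI3 kinase. In glia, neuregulin signalling through ERBB3 and ERBB2 is best known for Schwann cells, the myelin-forming cells of peripheral nerve. ERBB3 is also present in the oligodendrocyte lineage, and EGFR in glial progenitors and astrocytes.

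Levels are FPKM, fragment numbers divided by the length of the transcript and by the size of the library, so that genes within a library can be compared per length. Each FPKM comes with a deposited interval that covers estimation within the library and not the variation between animals. A difference is given as log2 of cKO over control after adding a pseudocount of 1 to each FPKM, which understates the difference of low genes. Genes with an OK status under both labels and at least 1 FPKM under either were tested, and a gene was called lower or higher when it differed by 2-fold or more and its deposited intervals lay apart. By this rule 4.51% of 14154 tested genes were lower and 4.73% higher under the cKO label, with a median log2 difference of 0.12 over all tested genes. That median was 0.05 with upper quartiles equalised and -0.17 with summed FPKM equalised. Of the genes called, 51.2% were higher on the deposited scale, 36.6% with median centring and 18.3% with summed FPKM equalised. Hdac3 itself was at 36.4 FPKM under the control label and 38.0 under the cKO label, so the whole-gene level leaves the genotype labels unchecked. All entries summed to 441867 FPKM for control and 557861 for cKO. Steps among the lowest values placed the total behind the FPKM near 24100000 fragments for control and 74800000 for cKO, a ratio of 3.10.

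Of the 9 genes, 7 were tested. The counts were 3 lower (Erbb3, Erbb4 and Tgfa), 1 higher (Egfr) and 3 in neither class (Erbb2, Nrg2 and Hbegf), against the shares of 4.51% and 4.73% among all tested genes. Nrg1 and Nrg3 stayed under 1 FPKM in both libraries. All 9 genes had an FPKM inside its own interval in both libraries. The median log2 difference of the 7 tested genes was -0.22, beside 0.12 for all tested genes, and the members spread from -2.09 for Erbb3 to 1.10 for Egfr.

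**Figure D1:**
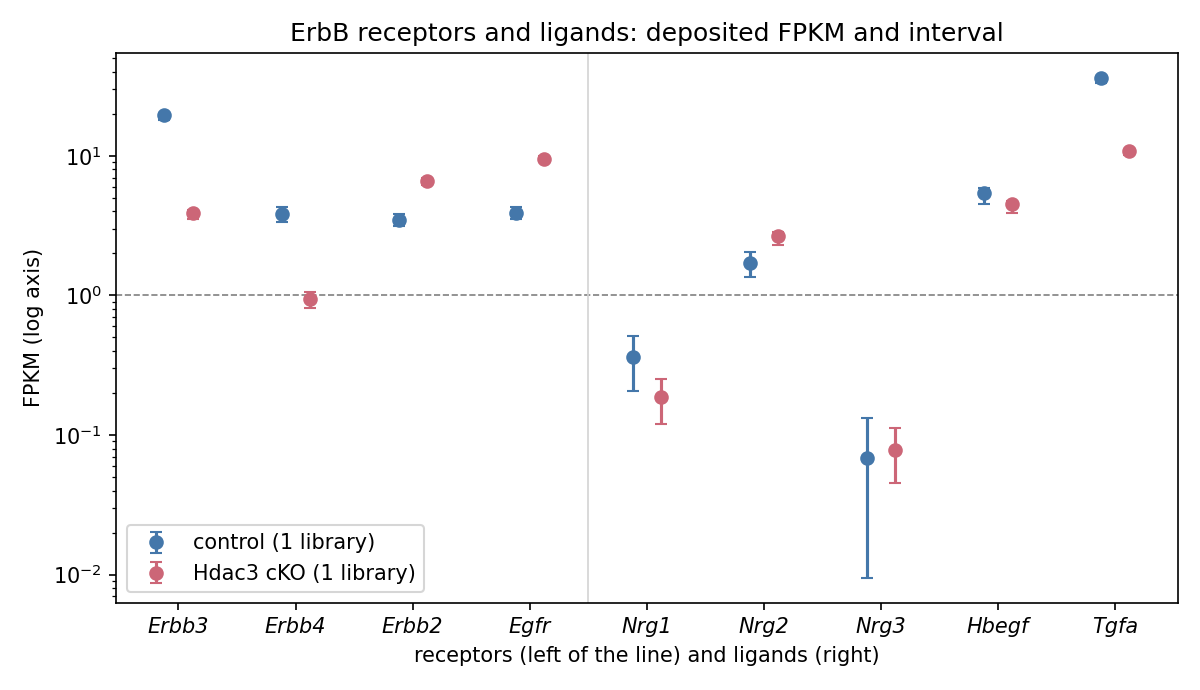
Deposited FPKM (points, log axis) of the 4 receptors and 5 ligands in the control library (blue) and the Hdac3 cKO library (red), with bars for the deposited interval and a dashed line at 1 FPKM. Erbb3, Erbb4 and Tgfa lie lower and Egfr and Erbb2 higher under the cKO label, while the bars of Hbegf, Nrg1 and Nrg3 overlap.

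Among the members called, Erbb4, Tgfa and Egfr have a promoter entry in RefSeq on GRCm38.p6, and the 250 bases before each start are shown because Erbb4 and Tgfa were lower and Egfr was higher. Capitals mark matches on either strand to GGGCGG (the GC box), CAGCTG (a form of the E box), and ACAAAG or AACAAT (forms of the site of SOX factors). The Erbb4 window is chr1:69108060-69108309 on the minus strand, the Tgfa window chr6:86194972-86195221 on the plus strand and the Egfr window chr11:16751953-16752202 on the plus strand. All are written 5′ to 3′ along the gene.
Erbb4: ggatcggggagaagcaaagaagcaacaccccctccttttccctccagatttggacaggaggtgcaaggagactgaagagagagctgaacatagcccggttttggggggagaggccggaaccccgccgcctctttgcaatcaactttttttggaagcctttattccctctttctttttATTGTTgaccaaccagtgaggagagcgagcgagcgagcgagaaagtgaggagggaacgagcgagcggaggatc
Tgfa: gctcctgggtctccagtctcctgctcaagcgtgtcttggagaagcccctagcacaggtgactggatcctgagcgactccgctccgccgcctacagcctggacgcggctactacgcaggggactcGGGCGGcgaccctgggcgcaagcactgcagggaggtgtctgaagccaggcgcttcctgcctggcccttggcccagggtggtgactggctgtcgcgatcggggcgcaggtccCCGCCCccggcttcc
Egfr: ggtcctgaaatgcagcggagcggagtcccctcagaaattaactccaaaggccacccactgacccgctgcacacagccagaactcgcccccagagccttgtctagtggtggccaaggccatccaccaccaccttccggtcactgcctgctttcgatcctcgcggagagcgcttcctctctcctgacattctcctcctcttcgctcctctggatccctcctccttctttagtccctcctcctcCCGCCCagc
In the GENCODE M21 annotation 1 transcript starts at the Erbb4 window and 1 at the Egfr window, but 0 at the Tgfa window. The Tgfa start thus rests on RefSeq only. The Tgfa window holds 2 GC boxes, the Egfr window 1 and the Erbb4 window 0. In the Erbb4 window 1 match to AACAAT was found on the opposite strand, and the other 2 windows hold 0 matches to either SOX form. None of the 3 windows holds CAGCTG. Of 32851 promoter windows of the same length, 32.7% hold the GC box, 13.0% CAGCTG, 16.5% ACAAAG and 9.42% AACAAT. The GC content was 54.0% for Erbb4, 69.2% for Tgfa and 60.8% for Egfr, beside a median of 52.4% over all windows. A match describes the letters and not a bound site.

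Erbb3, the neuregulin receptor that needs a partner kinase, had the largest difference of the 9 genes. Its entry covers 128006424 to 128026557 on chromosome 10 (mm9). Erbb3 was at 19.7 FPKM under the control label (interval 18.0 to 20.4) and at 3.87 FPKM under the cKO label (interval 3.51 to 4.08). The control level was 5.09 times the cKO level, and the log2 difference was -2.09. The interval bounds allow log2 differences from -2.24 to -1.91. Only 0.961% of tested genes had a more negative difference. Under the control label Erbb3 was the most abundant receptor, with its interval above those of the other 3, and under the cKO label it was below Egfr and Erbb2.

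Erbb4, which binds neuregulins and also has an active kinase, was lower as well. Its entry spans 68086540 to 69154633 on chromosome 1 (mm9). Erbb4 was at 3.84 FPKM in control (interval 3.37 to 4.30) and 0.940 in cKO (interval 0.814 to 1.06), with a control level 4.09 times the cKO level and a log2 difference of -1.32. With a pseudocount of 5 that difference was -0.57 and Erbb4, below 5 FPKM in both libraries, was not called, whereas with a pseudocount of 0.1 it was -1.92 and Erbb4 was called. The ratio of Erbb4 to Erbb3 does not depend on the scaling between libraries. It was 0.195 in control (0.166 to 0.238 from the interval bounds) and 0.243 in cKO (0.200 to 0.302), and these ranges overlap.

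Egfr, the receptor of TGF-alpha and HB-EGF, was the only member called higher. Its entry covers 16652206 to 16813910 on chromosome 11 (mm9). Egfr was at 3.92 FPKM under the control label (interval 3.54 to 4.30) and 9.52 under the cKO label (interval 9.16 to 9.97). The level was 2.43-fold higher in cKO, with a log2 difference of 1.10 and interval bounds of 0.94 to 1.27. The call rests on a difference close to 2-fold. The log2 difference was 1.03 with upper quartiles equalised, 0.98 with median centring and 0.80 with summed FPKM equalised, so Egfr was not called in the last 2, although it was higher in each.

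Erbb2, the partner receptor without a ligand of its own, was at 3.49 FPKM in control (interval 3.16 to 3.82) and 6.58 in cKO (interval 6.24 to 6.90). Its entry covers 98273798 to 98299030 on chromosome 11 (mm9) and overlaps the entry of Mien1 by 9 bases. The intervals lay apart, but the log2 difference of 0.76 was under 2-fold. Under a 1.5-fold rule with separate intervals Erbb2 was called higher beside Egfr, and the same 3 members were lower. That rule was met by 16.0% of all tested genes on the higher side and 8.85% on the lower side. With summed FPKM equalised the Erbb2 difference was 0.47, also above 0.

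Erbb3 and Erbb4, which bind neuregulins, were called lower, Egfr was called higher and Erbb2 was not called. The makeup of the receptor transcripts differed between the libraries. Summed over the 4 receptors, the level was 31.0 FPKM in control and 20.9 in cKO. Erbb3 made up 63.7% of the control sum (59.2% to 66.9% from the interval bounds) and 18.5% of the cKO sum (16.4% to 20.1%). Egfr made up 12.7% in control (11.0% to 14.9%) and 45.5% in cKO (43.2% to 48.6%). The share of Erbb2 was 11.3% in control and 31.5% in cKO, and that of Erbb4 was 12.4% and 4.50%. These shares are taken within a library, so no scaling between libraries changes them, and for none of the 4 receptors did the ranges of the libraries overlap.

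**Figure D2:**
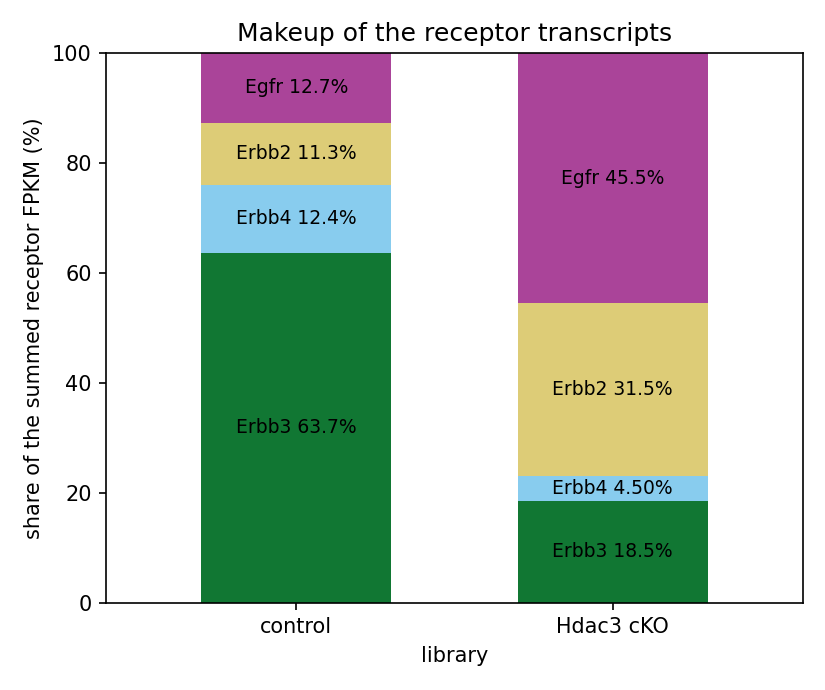
Share of the summed receptor FPKM (vertical axis, percent) held by each of the 4 receptors in the control library (left bar) and the Hdac3 cKO library (right bar). Erbb3 takes 63.7% of the control bar and 18.5% of the cKO bar, and Egfr 12.7% and 45.5%.

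The order of the receptors also differed. Under the control label Erbb3 was first, and the intervals of Egfr and Erbb4, and those of Erbb4 and Erbb2, overlapped, so these neighbours were not separated. Under the cKO label the order was Egfr, Erbb2, Erbb3 and Erbb4, with the intervals of neighbours apart. The ratio of Egfr to Erbb3 was 0.199 in control (0.174 to 0.238) and 2.46 in cKO (2.25 to 2.84). The ratio of Erbb3 to Erbb2, its usual partner, was 5.65 in control (4.72 to 6.44) and 0.588 in cKO (0.509 to 0.654).

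Among the ligands, Tgfa, the gene of the EGFR ligand TGF-alpha, was the most abundant in both libraries and the only one called. Its entry covers 86145245 to 86225443 on chromosome 6 (mm9). Tgfa was at 35.9 FPKM under the control label (interval 33.3 to 36.2) and 10.9 under the cKO label (interval 10.1 to 11.0). The control level was 3.30 times the cKO level and the log2 difference was -1.63, with interval bounds of -1.75 to -1.52. Only 1.94% of tested genes had a more negative difference. Tgfa and its receptor Egfr thus differed in opposite directions, and the ratio of Tgfa to Egfr was 9.16 in control (7.74 to 10.2) and 1.14 in cKO (1.01 to 1.20).

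Hbegf, which encodes HB-EGF, a ligand of EGFR and ERBB4, was at 5.45 FPKM in control (interval 4.53 to 5.89) and 4.53 in cKO (interval 3.92 to 4.79). The intervals overlap, and the log2 difference of -0.22 was not called. It was below 0 under each of the 10 alternative settings. The ratio of Tgfa to Hbegf was 6.58 in control (5.66 to 7.99) and 2.40 in cKO (2.11 to 2.80), so the libraries differed in the balance of these EGFR ligands.

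Under the control label the neuregulins were the lowest members, and under the cKO label Nrg2 lay above Erbb4, with their intervals apart. Nrg2 was at 1.71 FPKM in control (interval 1.36 to 2.05) and 2.67 in cKO (interval 2.31 to 2.83), a log2 difference of 0.44 that was not called although the intervals lay apart. Nrg1 was at 0.362 FPKM in control (interval 0.207 to 0.517) and 0.187 in cKO (interval 0.120 to 0.250). Nrg3 was at 0.0690 FPKM in control (interval 0.00952 to 0.133) and 0.0783 in cKO (interval 0.0456 to 0.113). The intervals of the libraries overlap for Nrg1 and for Nrg3, so no difference was detectable at this depth. Given the lengths of its coding transcripts in GENCODE M21, the Nrg3 value corresponds to between 3.6 and 6.7 fragments in control and between 12.5 and 23.5 in cKO.

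The Nrg1 value covers only part of that gene. NRG1 is made from several alternative starts, including that of the membrane-bound form that axons present to Schwann cells. The deposited Nrg1 entry spans 100.2 kb (32928500 to 33028675 on chromosome 8, mm9) with 1 start site group, whereas the Nrg1 gene in GENCODE M21 spans 1069 kb with 18 transcripts. For the other 8 members the deposited span and the GENCODE M21 span were close, for example 1068 kb and 1076 kb for Erbb4 and 10.9 kb and 10.9 kb for Hbegf. Transcripts of Nrg1 that start outside the deposited span were not analysed here. Retinal ganglion cells, whose axons run in the nerve, have their cell bodies in the retina, which was not sampled.

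The 6 further ErbB ligands were near or under 1 FPKM. Nrg4, a neuregulin that binds ERBB4, was the only one tested, at 1.79 FPKM in control (interval 1.41 to 2.16) and 1.69 in cKO (interval 1.47 to 1.91). Egf was at 0.286 and 0.244 FPKM, and Ereg was listed at 0 in both libraries. Over all 11 ligands the summed level was 45.7 FPKM in control and 20.5 in cKO. Tgfa made up 78.6% of this sum in control (74.6% to 82.4%) and 53.2% in cKO (49.1% to 57.4%).

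Markers of cell types were set beside the members, as their levels moved between the libraries. All 9 oligodendrocyte lineage markers were lower, at a median log2 difference of -2.33 and with a summed level of 782 FPKM in control and 159 in cKO. All 12 myelin markers were lower too, with a median of -2.68. Of 12 oligodendrocyte precursor markers, 5 were lower and 0 higher (median log2 difference -0.77), with sums of 523 and 271 FPKM. No marker of these 3 lists was at 0 in either library. The part of these cells in the difference of Erbb3, Erbb4 and Tgfa was not tested.

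Erbb3 lay within the range of the oligodendrocyte lineage list, and 7 of its 9 genes had a more negative difference. Of the 12 precursor markers 2 had a more negative difference than Erbb3 and 10 a less negative or positive one. The ratio of Erbb3 to Sox10, the lineage factor known to regulate Erbb3 in glia, was 0.141 in control and 0.151 in cKO. Its ratio to Olig1 was 0.0721 and 0.0687. Sox10 and Olig1 both lie above their own deposited intervals in both libraries, so these ratios carry no range. Against Pdgfra, the receptor that marks precursors and a gene chosen with its values known, the ratio of Erbb3 was 0.556 in control (0.489 to 0.593) and 0.0997 in cKO (0.0876 to 0.106). Pdgfra had the highest log2 difference of the 12 precursor markers, 0.13 beside a list median of -0.77, so this ratio does not stand for that list. The 3 markers with a log2 difference closest to that of Erbb3 were sought among 102 markers that reached 5 FPKM. They were St18 (-2.02) of the lineage list and Cldn11 (-2.20) and Opalin (-2.22) of the myelin list. Of the markers that reached 5 FPKM, those called lower all came from the lineage, precursor and myelin lists. No other list could therefore supply a nearest marker.

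Of the 9 lineage markers 8 had a more negative difference than Tgfa or Erbb4. Of the 12 precursor markers only 2 had a more negative difference than Tgfa, and 3 than Erbb4. The ratio of Tgfa to Sox10 was 0.257 in control and 0.426 in cKO, and that of Erbb4 to Sox10 was 0.0275 and 0.0368. Schwann cells also express Erbb3. Of 7 tested Schwann cell markers 1 was lower (Pou3f1, which is also found in the oligodendrocyte lineage) and 0 higher, with sums over the 11 listed genes of 160 FPKM in control and 225 in cKO. Most of that sum came from Pmp22, which other cells also express, at 95.6 FPKM for control and 167 for cKO. Sox2 was at 45.3 and 38.7 FPKM. Foxd3, a neural crest factor of that list, was listed at 0 in cKO.

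**Figure D3:**
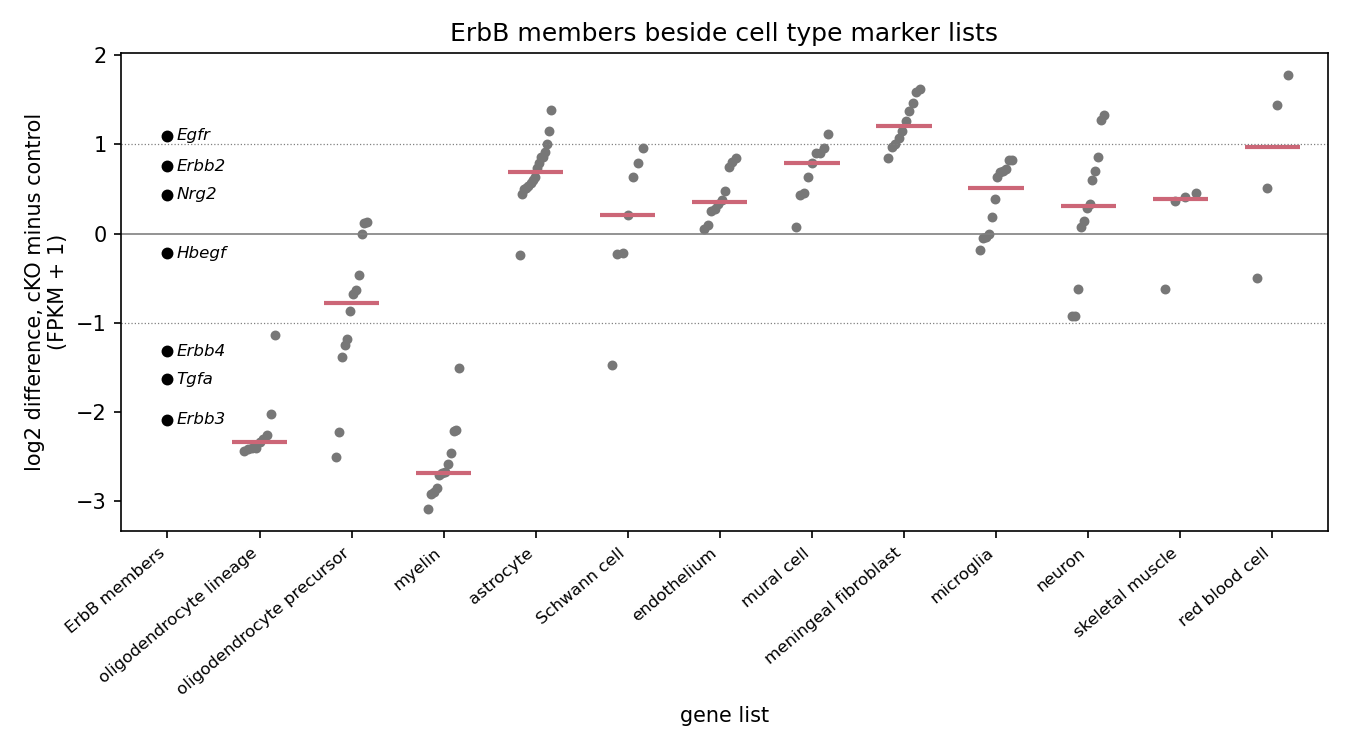
Log2 difference of cKO over control (vertical axis, FPKM plus 1) for the 7 tested ErbB members (black, named) and for the tested genes of 12 cell type marker lists (grey points, median as a red line), with dotted lines at 2-fold. Erbb3 lies among the oligodendrocyte lineage and myelin genes, Egfr lies among the markers of astrocytes, mural cells and meningeal fibroblasts, and Erbb2 lies below all 10 meningeal fibroblast markers.

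Several lists had a median difference above 0, the direction of Egfr. Of 16 astrocyte markers 3 were higher and 0 lower, at a median log2 difference of 0.69 and with sums of 2518 FPKM in control and 4310 in cKO. Of these 16 markers 14 had a smaller difference than Egfr. The ratio of Egfr to Atp1b2, one of the 2 most abundant markers of that list, was 0.00923 in control and 0.0144 in cKO, and its ratio to Mlc1, the other one, was 0.0127 and 0.0163. Atp1b2 and Mlc1 both lie above their own deposited intervals in both libraries, so these ratios carry no range. Meningeal fibroblast markers were higher for 8 of 10 genes, with a median of 1.21 and sums of 1502 and 3479 FPKM. Of these 10 genes 4 had a smaller difference than Egfr and 6 a larger one. Mural cell markers had a median of 0.80, with 1 of 9 higher and sums of 284 and 515 FPKM.

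The 3 markers closest to Egfr were Acta2 (1.11) of mural cells and Col1a2 (1.07) and Fmod (1.15) of meningeal fibroblasts. No marker of the astrocyte, mural cell or meningeal fibroblast list was at 0 in either library. Red blood cell markers were higher for 2 of 4 tested genes, with a median of 0.98 and sums of 90.7 and 269 FPKM. These 2 were Hba-a1 (1.78) and Hbb-b1 (1.44), globin genes with near-identical copies whose reads the counting could split. Neuron markers were higher for 2 of 12 tested genes, the neurofilament genes Nefl (1.28) and Nefh (1.33), which were named after their values were seen, with a median of 0.31 and sums of 124 and 144 FPKM. Of these 12 genes 9 had a difference above 0 and 3 below. Among the latter was Gap43 (-0.92), at 49.9 FPKM in control and 25.8 in cKO. No neuron or red blood cell marker with an entry was at 0. The part of these 5 cell types in the Egfr difference was not tested. The medians of the endothelial list (0.36, 0 of 10 called) and the microglial list (0.51, 0 of 12 called) were smaller than the Egfr difference.

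Most other genes of the pathway, from further ligands and their shedding to receptor turnover and downstream signalling, were not called. Over 7 lists with 90 genes of the pathway, 83 genes were tested, of which 3 were lower (3.61%) and 1 higher (1.20%). These shares are at or below the 4.51% and 4.73% of all tested genes. The median log2 difference was 0.08, beside 0.12 over all tested genes.

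Of 10 genes of ligand shedding, 1 was lower and 0 higher. Bace1, a protease that cleaves neuregulin 1, was at 59.8 FPKM in control (interval 57.6 to 62.3) and 27.7 in cKO (interval 27.1 to 28.7), a log2 difference of -1.09 that was under 2-fold, at -0.99, with a pseudocount of 5. Timp3, an inhibitor of the sheddase ADAM17, was at 96.4 and 171 FPKM (log2 0.82), and Nrd1, a metalloprotease that enhances shedding, at 63.6 and 37.9 (log2 -0.73), with neither called. Of 14 genes that restrain or turn over ErbB receptors 0 were called. Lrig1, which promotes receptor degradation, was at 40.5 FPKM for control and 67.9 for cKO (log2 0.73). Usp8, a deubiquitinase that acts on internalised receptors, was at 20.4 and 22.1 FPKM (log2 0.11). Errfi1, an inhibitor of the EGFR kinase named with its values known, was at 12.5 and 23.3 FPKM (log2 0.85).

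Among 15 tested adaptors and partners, Fyn was the only gene called. FYN is a Src family kinase that acts in oligodendrocyte maturation. It was at 189 FPKM in control (interval 188 to 195) and 56.6 in cKO (interval 56.1 to 58.4), a log2 difference of -1.72. Ptpn11, the phosphatase SHP2, was at 63.6 and 46.2 FPKM (log2 -0.45). Of 15 genes of the PI3K and Akt pathway, Pik3r3, a regulatory subunit of PI3 kinase, was lower, at 48.7 FPKM for control and 18.3 for cKO (log2 -1.36). Its interval was 45.7 to 49.1 in control and 17.2 to 18.2 in cKO, the latter just below the value itself. Akt1 was at 46.0 and 56.8 FPKM (log2 0.30) and Akt2 at 37.9 and 55.1 (log2 0.53). The calls of Fyn and Pik3r3 held under all 10 alternative settings.

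In the Ras and Erk pathway 0 of 14 genes were called. Mapk3, which encodes ERK1, was at 183 FPKM for control and 140 for cKO (log2 -0.39), and Map2k1, which encodes MEK1, was at 45.0 and 55.5 (log2 0.30). Among 14 tested genes that ERK signalling induces, 1 was higher and 0 lower. On the deposited scale, 13 of these 14 had a difference above 0. Of all tested genes, 60.3% had a difference above 0.0125, the log2 difference of Nrg3, so the share above 0 was at least that. The median of all was 0.12. The median log2 difference of these 14 genes was 0.32 on the deposited scale, 0.20 with median centring and 0.03 with summed FPKM equalised. Ier3, an early response gene, was at 7.44 FPKM in control (interval 5.32 to 7.87) and 20.5 in cKO (interval 16.0 to 18.1, below the value itself), a log2 difference of 1.35 that was called under all 10 alternative settings. Ccnd1, the gene of cyclin D1, was at 54.6 and 86.1 FPKM (log2 0.65), and Phlda1 at 24.9 and 20.5 (log2 -0.27). Of the uncalled pathway genes with values given here, Timp3, Mapk3, Map2k1 and Ccnd1 lie above their own deposited intervals in both libraries. Errfi1 and Phlda1 do so in cKO only. These genes also respond to other growth factors, so their values do not separate ErbB input from other input.

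**Figure D4:**
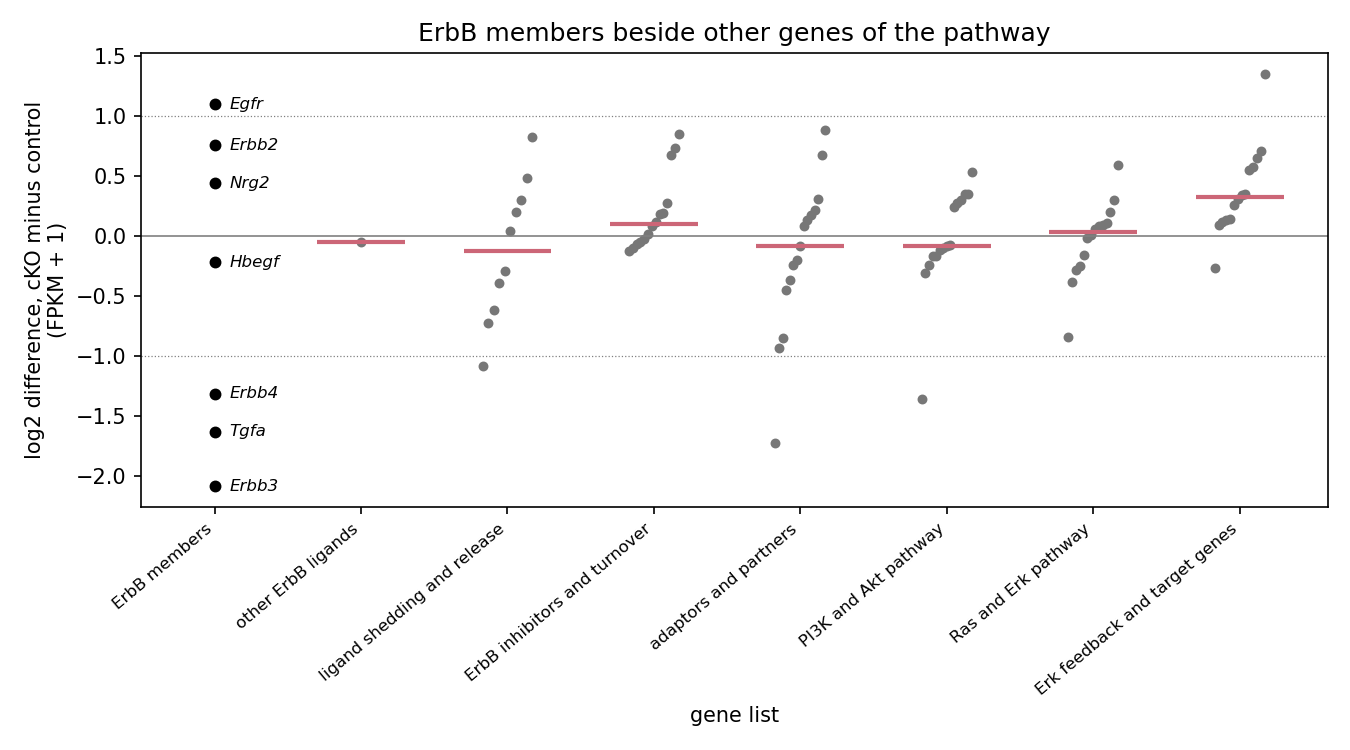
Log2 difference of cKO over control (vertical axis, FPKM plus 1) for the 7 tested ErbB members (black, named) and the tested genes of 7 pathway lists (grey points, median as a red line), with dotted lines at 2-fold. The pathway genes lie mostly between the dotted lines, with Fyn, Pik3r3 and Bace1 below and Ier3 above, while Erbb3, Tgfa and Erbb4 lie below the lower line.

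The directions of the 7 tested members held under each alternative pseudocount and scaling in which they were tested. Erbb3 ranged from -2.35 to -1.48 and Tgfa from -1.94 to -1.36, and both were called lower in all 10 alternatives. Erbb2 ranged from 0.45 to 0.90 and Nrg2 from 0.19 to 0.61.

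**Figure D5:**
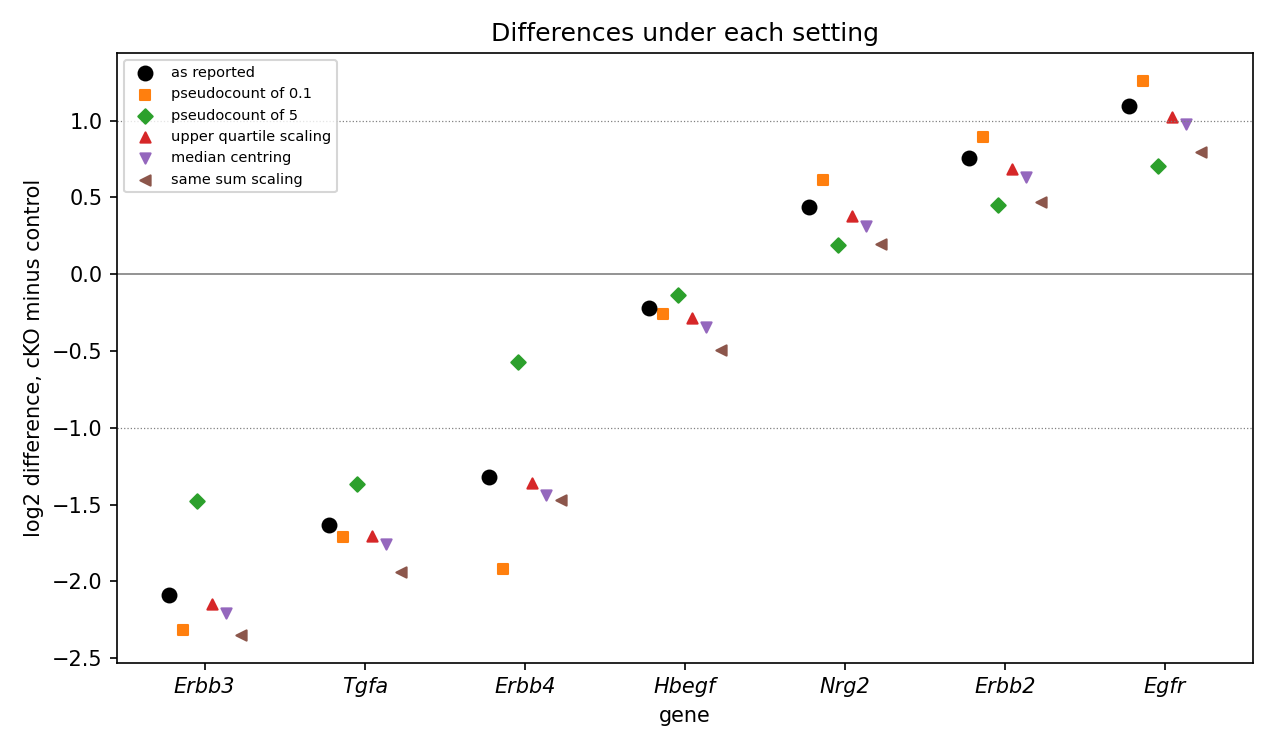
Log2 difference of cKO over control (vertical axis) of the 7 tested members as reported (black) and with another pseudocount or scaling (coloured markers), with dotted lines at 2-fold. Erbb3 and Tgfa stay below the lower line in every setting drawn, Erbb4 rises above it with a pseudocount of 5, and Egfr lies on either side of the upper line.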

How the data were processed

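RNA-seq of 2 libraries of mouse optic nerve was analysed. The labels' protocols give Trizol extraction and the Illumina TruSeq RNA kit. The submitters' processing notes name CASAVA, TopHat, Cufflinks and the mm9 build, and versions, annotation and the confidence level of the intervals were not given in the sources used here. The authors deposited FPKM per gene with lower and upper interval bounds and a status, per the file headers. The 24460 entries of both tables were matched by symbol, start site group and locus, and a symbol with several entries was represented by the one with the highest summed FPKM. LOWDATA marked 356 values in each library and HIDATA 1 value in cKO, and these were not tested.

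Differences, the 2-fold rule, the minimum of 1 FPKM and the pseudocount of 1 are as described above, computed with Python 3.11.15 and pandas 2.3.3. The code was run on simulated libraries of equal depth, with counting noise only and intervals centred on the value. That simulation does not cover the unequal depth of these libraries, values outside their own interval or the variation between animals. FPKM holds no counts. For genes with 1 coding transcript in GENCODE M21, FPKM times length showed steps, and the median within 15% of the commonest was taken as 1 fragment (0.0414 FPKM times kb in control, 0.0134 in cKO), which gives the depth above if the total was all fragments. Alternatives changed the pseudocount, scaling, minimum FPKM, handling of several entries and call rule. Named were all 9 genes, Hdac3, the called genes and 2 most abundant genes of each pathway list (at most 4 called), the 3 markers nearest to Erbb3 and Egfr, and the 2 most abundant markers of a list. Pou3f1 and Foxd3 fall outside this rule, as do Pdgfra, Errfi1, Ereg, Nefl and Nefh. The members and lists were chosen with earlier results of these data known. The older symbol Hras1 was matched to Hras through RefSeq. Starts were shifted by 1 base to count from 1.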

Additional observations from a re-analysis of the deposited data

How the results depend on the processing

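The number of members called lower was 3 in each alternative setting except the pseudocount of 5 and the minimum of 5 FPKM, where it was 2. The number called higher was 1, and it became 0 with a pseudocount of 5, with median centring and with scaling to the same sum, and 2 with a 1.5-fold rule. Pathway genes called lower numbered 3, but 2 with a pseudocount of 5, 4 with a pseudocount of 0.1, upper quartiles equalised or median centring, 7 with summed FPKM equalised and 8 with a 1.5-fold rule. Those called higher numbered 1, but 2 with a pseudocount of 0.1 and 10 with a 1.5-fold rule. The log2 difference of Erbb3 was -2.32 with a pseudocount of 0.1, -1.48 with a pseudocount of 5 and -2.35 with summed FPKM equalised, and that of Egfr was 0.70 with a pseudocount of 5 and 0.80 with summed FPKM equalised. Of all tested genes, 638 were lower and 669 higher, against 823 and 1156 with a pseudocount of 0.1, 339 and 282 with a pseudocount of 5, 761 and 439 with median centring, 963 and 215 with summed FPKM equalised, and 1253 and 2262 with a 1.5-fold rule. No member has several entries, so summing entries changed no member, and the Erbb3 shares taken from the lower or the upper interval bounds stayed within the ranges given. The depth ratio read from the steps, 3.10, was 3.05 with a narrower window around the step, an alternative chosen after seeing the data. With 1 library per group no library could be left out.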

Other observations

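The markers closest to Tgfa and Erbb4 were looked up after their values were seen. Among 102 markers that reached 5 FPKM, those closest to Tgfa (log2 -1.63) were Aspa (-1.51), St18 (-2.02) and Lhfpl3 (-1.18). Those closest to Erbb4 (log2 -1.32) were Lhfpl3 (-1.18), Zfp488 (-1.14) and Aspa (-1.51). Aspa, which encodes an enzyme that cleaves N-acetylaspartate in oligodendrocytes, was the least reduced of the 12 myelin markers, at 27.2 FPKM in control and 8.90 in cKO. The markers closest to Erbb2 (log2 0.76) came from 3 different lists, Ly6c1 of endothelium (0.75), Slc1a3 of astrocytes (0.74) and Tmem119 of microglia (0.73).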
